A study of Mus musculus with 21 samples.

Results

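The acute-phase protein genes Saa3, Lcn2, Hp and Cp and the complement genes C3 and C1qa were followed on 21 one-colour arrays of mouse MIN6m9 cells. They are 6 of the 20145 genes that the array probes could be matched to by RefSeq accession. Saa3, Lcn2 and C1qa were selected on these same array signals, because they differed between the groups, so their levels and differences are given as descriptions with no test. C3, Hp and Cp were added for their function and were tested. On GRCm38.p6, RefSeq places Saa3 at chr7:46711998-46719615, Lcn2 at chr2:32384637-32387739, Hp at chr8:109575128-109579172, Cp at chr3:19956933-20009750, C3 at chr17:57203967-57228136 and C1qa at chr4:136895916-136898844.

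MIN6m9 is a line of insulin-secreting cells from a mouse insulinoma. In the fatty acid experiment, wild-type MIN6m9 cells received 400 uM palmitate for 48 h, 400 uM oleate for 48 h, or neither (untreated), on 3 arrays each. For the PERK experiment, MIN6m9 cells carrying Fv2E-PERK, an eIF2alpha kinase that the chemical dimerizer AP20187 switches on without an unfolded-protein signal, received 1 nM AP20187 for 6, 12, 24 or 48 h. They were compared with mock-treated Fv2E-PERK cells, for which the protocol names ethanol as the vehicle, and with mock-treated wild-type cells. Each group had 2 arrays. No wild-type cells received AP20187, so effects of AP20187 itself and of Fv2E-PERK cannot be told apart. Not given in the sources used here are the promoter that drives Fv2E-PERK, whether its cells are 1 clone or a pool, and when untreated and mock cells were harvested. Nothing says that replicate arrays came from separate cultures, so p-values measure the spread between these arrays, which may be technical.

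Signals are log2 values relative to the 75th percentile of the same array, so 0 is the brightness of the upper quartile of probes and each unit is a doubling. A probe counts as measured where the scanner software marked it well above background, which held for 46.8% to 56.9% of probes per array. The 12 beta cell marker genes had a summed linear level of 1432 to 2660 (the 75th percentile signal is 1), with 10 to 12 of 12 above background per array. Untreated array 2 correlated with the other untreated arrays at 0.978 to 0.980, against at least 0.993 for other pairs of the same group. Markers of other cell types moved with some groups. The levels of 10 heart muscle genes summed to 0.909 to 1.97 on palmitate arrays, 18.8 to 21.6 on oleate arrays and 17.4 to 22.5 on untreated arrays. Palmitate array 3 differed from the other palmitate arrays, at 1.25 against 21.2 and 21.4 for 12 skeletal muscle genes and at 5.46 against 0.585 and 0.739 for 8 adipocyte genes. The slide position was confounded too. Palmitate array 3 lay alone on a slide. The 48 h and wild-type mock arrays shared one slide and the Fv2E-PERK mock, 6, 12 and 24 h arrays another, so slide and group cannot be told apart in 48 h against Fv2E-PERK mock, in 48 h against 6 h and between the mocks.

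The acute-phase response is a change in secreted proteins, known best from liver, that follows infection or injury. Cytokines such as interleukin 6 and interleukin 1 act through STAT3, NF-kB and C/EBP factors to raise serum amyloid A, haptoglobin, hemopexin and others. Complement is a cascade of plasma proteins: C1q recognises antibody-coated surfaces, the C3 step amplifies the signal, and soluble or membrane-bound regulators restrain it. Pancreatic islets are known to express C3 themselves.

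Promoter sequences are shown because Saa3, Lcn2 and C3 are textbook targets of C/EBP and NF-kB. RefSeq windows on GRCm38.p6 matched 4 of the 6 genes in 5 windows; Hp and C1qa had none. The 250 bases before the annotated start are printed 5′ to 3′ on the gene's strand, with matches in capitals. The windows are chr7:46715677-46715926 for Saa3, chr2:32387740-32387989 for Lcn2 and chr17:57228137-57228386 for C3, all on the minus strand. The gene span that RefSeq gives Saa3 reaches beyond this start.
Saa3: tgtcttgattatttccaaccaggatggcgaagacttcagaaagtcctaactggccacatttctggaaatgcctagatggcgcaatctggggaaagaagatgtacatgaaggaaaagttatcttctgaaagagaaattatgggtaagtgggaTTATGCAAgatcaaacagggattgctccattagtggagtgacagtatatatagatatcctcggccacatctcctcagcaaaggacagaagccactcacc
Lcn2: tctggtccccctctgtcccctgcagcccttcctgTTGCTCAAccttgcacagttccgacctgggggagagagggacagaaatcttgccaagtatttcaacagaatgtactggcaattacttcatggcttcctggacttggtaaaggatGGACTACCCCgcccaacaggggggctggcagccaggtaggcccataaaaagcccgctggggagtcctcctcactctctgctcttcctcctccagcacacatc
C3: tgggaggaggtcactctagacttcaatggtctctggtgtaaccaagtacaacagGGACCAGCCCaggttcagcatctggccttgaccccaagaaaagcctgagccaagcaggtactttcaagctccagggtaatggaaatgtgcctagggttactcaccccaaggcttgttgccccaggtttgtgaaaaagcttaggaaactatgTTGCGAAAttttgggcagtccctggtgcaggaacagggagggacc

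Both strands were searched for C/EBP (TTNNGCAA), NF-kB (GGGNNNNTCC), STAT (TTCNNNGAA) and the C/EBP-ATF element CARE (TGATGNAA). The Saa3 window held one C/EBP match, 99 to 92 bases before the start. Lcn2 held an NF-kB match at 102 to 93 bases and a C/EBP match at 216 to 209 bases, and C3 held an NF-kB match at 196 to 187 bases and a C/EBP match at 45 to 38 bases, all on the opposite strand. One of the Cp windows held a C/EBP match at 70 to 63 bases. None of the 5 windows held the STAT or CARE letters. Over 32536 RefSeq windows of the same length, 9.57% held the C/EBP letters, 16.5% the NF-kB letters, 7.04% the STAT letters and 3.4% the CARE letters. A match describes the letters and is not evidence of binding.

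Saa3, a serum amyloid A of mouse that is made mainly outside the liver, was bright after palmitate and dim in the other fatty acid groups. Its signals on the palmitate arrays were -0.94, -1.02 and -1.05, on the oleate arrays -5.59, -5.20 and -4.75, and on the untreated arrays -4.24, -4.15 and -4.12. It was well above background on 3 palmitate arrays, 0 oleate arrays and 1 untreated array, and the groups did not overlap. The palmitate mean lay 3.17 log2 units, or 8.97-fold, above the untreated mean of -4.17, with an SD of 0.06 in both groups (n = 3 each), although 2 of the 3 untreated values were not well above background. Palmitate exceeded oleate by at least 18.1-fold, a bound because oleate was below background. In bulk RNA, more RNA per cell and more cells that hold it cannot be told apart. Palmitate array 3, which lacked the skeletal muscle signal of the other palmitate arrays and carried adipocyte transcripts, read -1.05, like the other palmitate arrays.

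AP20187 in Fv2E-PERK cells was accompanied by a graded Saa3 signal. The Fv2E-PERK mock arrays read -5.75 and -5.61, the 6 h arrays -3.57 and -3.68, the 12 h arrays -2.95 and -2.56, the 24 h arrays -1.03 and -1.03 and the 48 h arrays -0.37 and -0.27. The wild-type mock arrays read -6.10 and -6.44. All mock arrays were below background, and no time point overlapped its neighbour. Against Fv2E-PERK mock the signal was higher by at least 2.83-fold at 6 h, 5.18-fold at 12 h, 17.1-fold at 24 h and 27.9-fold at 48 h. At 48 h it was at least 30.1-fold above wild-type mock on the same slide, and 9.88-fold above 6 h. The spike-in RNAs are synthetic transcripts added to each sample, and scaling to them gave log2 differences of 2.76, 3.66, 5.59 and 6.00 at 6, 12, 24 and 48 h, where the 75th percentile gave 2.06, 2.93, 4.65 and 5.36. Both sets are taken from mock signals below background, so they are readings and not sizes of change. Ranked over all groups, 48 h was highest, palmitate and 24 h overlapped in second place, and 12 h, 6 h and untreated followed without overlap. Oleate and both mocks were below background and have no order.

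**Figure D1:**
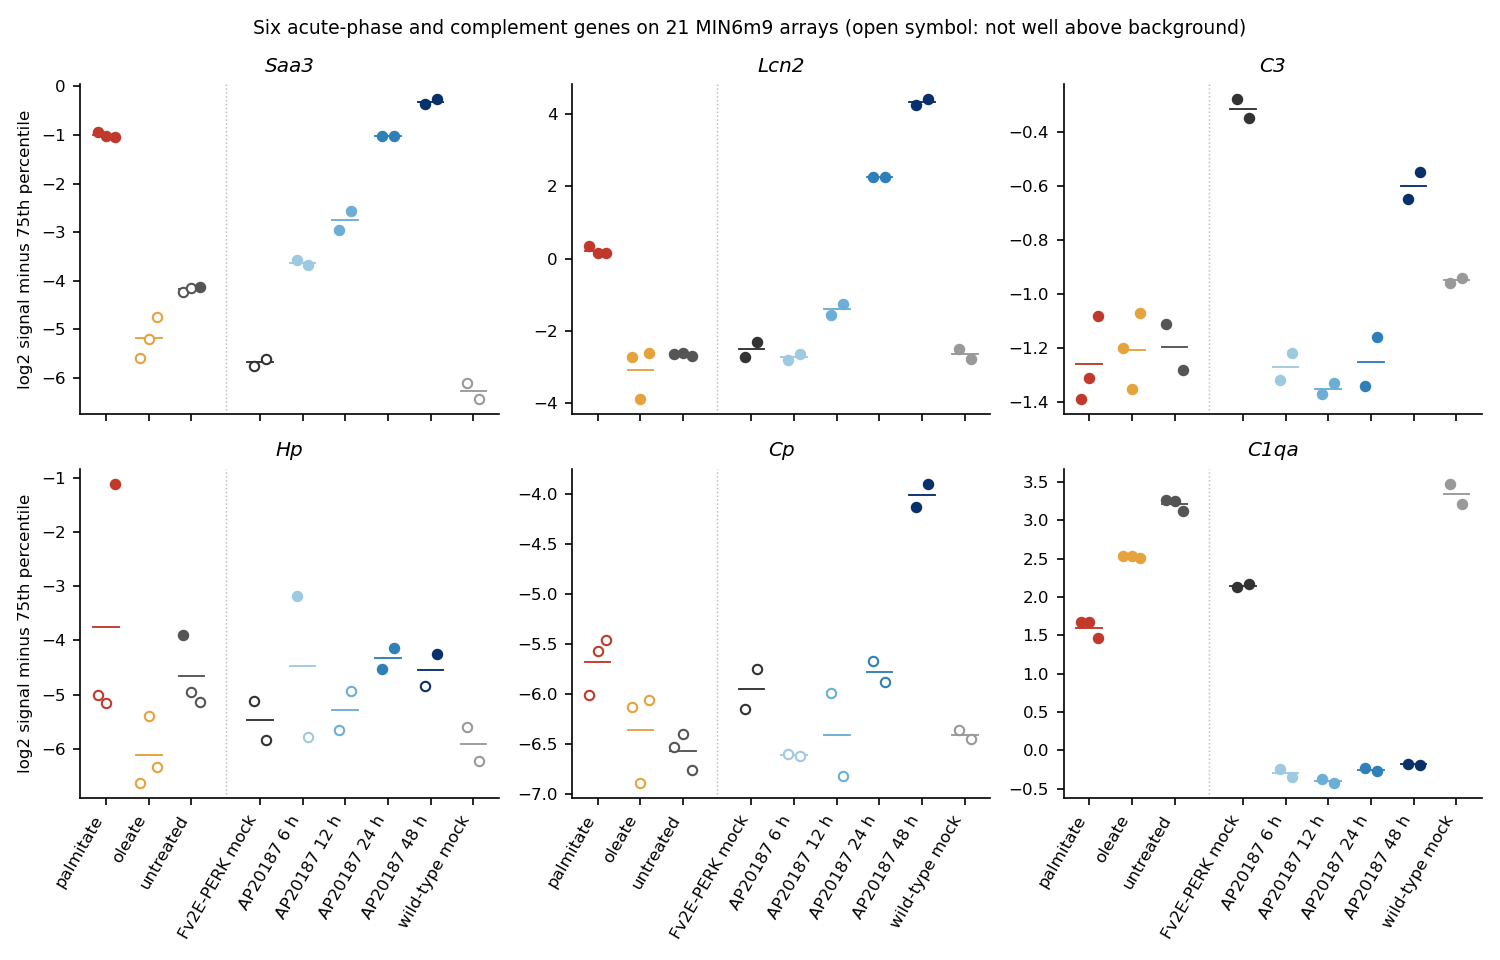
Signal of each gene on each array (y axis: log2 signal minus the array's 75th percentile), by group, with a line at the group mean, filled symbols for arrays well above background and open symbols for the rest. Saa3 and Lcn2 are higher at later AP20187 times and are high with palmitate, C1qa is low at every AP20187 time, and Hp and Cp are mostly open symbols.

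Saa1 and Saa2 encode the serum amyloid A proteins that mouse liver makes in the acute phase. Saa1 averaged -1.14 with palmitate, -1.24 with oleate and -1.02 in untreated cells, where Saa3 differed by over 3 log2 units. Its palmitate difference of -0.12 ± 0.14 did not pass (adjusted p = 0.59). Saa1 rose at 48 h against Fv2E-PERK mock by 0.65 ± 0.20 (adjusted p = 0.020) and against 6 h by 1.00 ± 0.20 (adjusted p = 0.0028), but its 0.35 difference from wild-type mock on the same slide did not pass (adjusted p = 0.15). The call against Fv2E-PERK mock ended without mock replicate 1 (adjusted p = 0.10) or 48 h replicate 2 (0.10). Saa2 was above background on no array. Saa1 and Saa2 are near-identical in sequence, so what the Saa1 probe binds is uncertain.

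Lcn2, lipocalin 2, is a secreted protein that binds bacterial iron-carrying siderophores. On the palmitate arrays it read 0.35, 0.16 and 0.15, on the oleate arrays -2.71, -3.89 and -2.60, and on the untreated arrays -2.65, -2.62 and -2.70. All 21 arrays were above background. Palmitate stood apart from both other groups, which overlapped. The palmitate mean of 0.22 ± 0.11 was 2.88 log2 units, or 7.37-fold, above the untreated mean of -2.66 ± 0.04, and 9.79-fold above the oleate mean of -3.07 ± 0.72 (SD, n = 3 each). Oleate differed from untreated by -0.41, which rested on oleate array 2 and was 0.0025 without it.

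In the PERK experiment the Lcn2 signal was at mock level at 6 h and far above it at 24 and 48 h. The Fv2E-PERK mock arrays read -2.72 and -2.30, the 6 h arrays -2.81 and -2.64, the 12 h arrays -1.55 and -1.25, the 24 h arrays 2.25 and 2.27 and the 48 h arrays 4.26 and 4.40. The wild-type mock arrays read -2.50 and -2.78. The 6 h arrays overlapped those of Fv2E-PERK mock, and each later time stood above the one before. The difference from Fv2E-PERK mock was -0.21 at 6 h, 1.11 (2.16-fold) at 12 h, 4.77 (27.3-fold) at 24 h and 6.84 (115-fold) at 48 h. With spike-in scaling Lcn2 differed by 0.49, 1.84, 5.71 and 7.48 at these times. Within the slide shared with wild-type mock, 48 h was 125-fold higher. The mean at 48 h, 4.33 ± 0.10, was brighter than 94.7% of array entries, and that of Fv2E-PERK mock, -2.51 ± 0.30, brighter than 62.3% (SD, n = 2 each). Palmitate lay between 24 h and 12 h in the order of levels, and the other groups overlapped. The levels of 8 markers of neutrophils, a cell type known for Lcn2, summed to 57.1 to 99.3 over the 21 arrays. Per array, 2 to 5 of the 8 were above background. The sums were 78.1 to 95.0 in Fv2E-PERK mock, 63.6 to 69.4 at 6 h and 95.4 to 96.7 at 12 h. They were 57.1 to 59.6 at 24 h and 87.9 to 92.5 at 48 h. The part of these markers in the Lcn2 result was not tested.

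Slc22a17 encodes a receptor that takes up lipocalin 2, and was above background on every array. It did not pass with palmitate (0.19, adjusted p = 0.070), and it fell at 48 h by 1.07 (adjusted p = 4.4e-05; -0.43 and 0.085 with spike-in scaling). Lrp2, megalin, another uptake receptor, was below background in mock cells and was at least 3.19-fold higher at 48 h (fitted change 2.67 ± 0.61, adjusted p = 0.0058). It entered the fit only through the 48 h arrays, and with no filter on dim probes the adjusted p was 0.0092.

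Hp, haptoglobin, binds free hemoglobin, and in these cells it was near the background limit. On the palmitate arrays it read -5.00, -5.15 and -1.11, on the oleate arrays -6.64, -5.39 and -6.34, and on the untreated arrays -3.90, -4.95 and -5.14. Only palmitate array 3 and untreated array 1 were above background, so Hp could not be fitted there. Palmitate array 3 had the highest sum of 8 adipocyte markers, 5.46, and Adipoq, which encodes adiponectin, at -1.39. Untreated array 1 had the next highest sum in that experiment, 1.38, with Adipoq at -3.42. The part of adipocyte RNA in the Hp signal was not tested.

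For Hp in the PERK experiment, the Fv2E-PERK mock arrays read -5.11 and -5.84, the 6 h arrays -3.18 and -5.78, the 12 h arrays -5.65 and -4.93, the 24 h arrays -4.53 and -4.14 and the 48 h arrays -4.85 and -4.26, and the wild-type mock arrays read -5.59 and -6.23. Above background were one 6 h array, both 24 h arrays and one 48 h array. Hp thus entered this fit through the 24 h arrays alone, so a pass at 24 h is not independent of the filter. No difference from Fv2E-PERK mock passed: 1.00 ± 0.74 at 6 h (adjusted p = 0.27), 0.19 at 12 h (0.83), 1.14 at 24 h (0.21) and 0.92 at 48 h (0.31). Without 6 h replicate 2 the 6 h difference was 2.30 (adjusted p = 0.0055), and without 6 h replicate 1 it was -0.31. Without 6 h replicate 1, 24 h passed (adjusted p = 0.032), and with spike-in scaling 24 h was 2.08 (adjusted p = 0.015) and 6 h 1.70 (adjusted p = 0.049). The adipocyte marker sum was 0.877 to 0.952 in Fv2E-PERK mock, 1.32 to 1.35 at 6 h, 1.96 to 2.10 at 12 h, 3.05 to 3.30 at 24 h and 3.07 to 3.17 at 48 h. Adipoq was above background there on one array alone, a 48 h replicate at -3.85. The sum in this experiment rests mostly on Cidea, a lipid droplet protein and the brightest of the markers there. Cidea read 1.51 and 1.48 at 48 h, against -0.92 and -1.16 in Fv2E-PERK mock. Fabp4 went the other way, with -4.67 and -5.73 at 48 h against -2.17 and -2.30 in Fv2E-PERK mock. Lep was above background on no array.

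**Figure D2:**
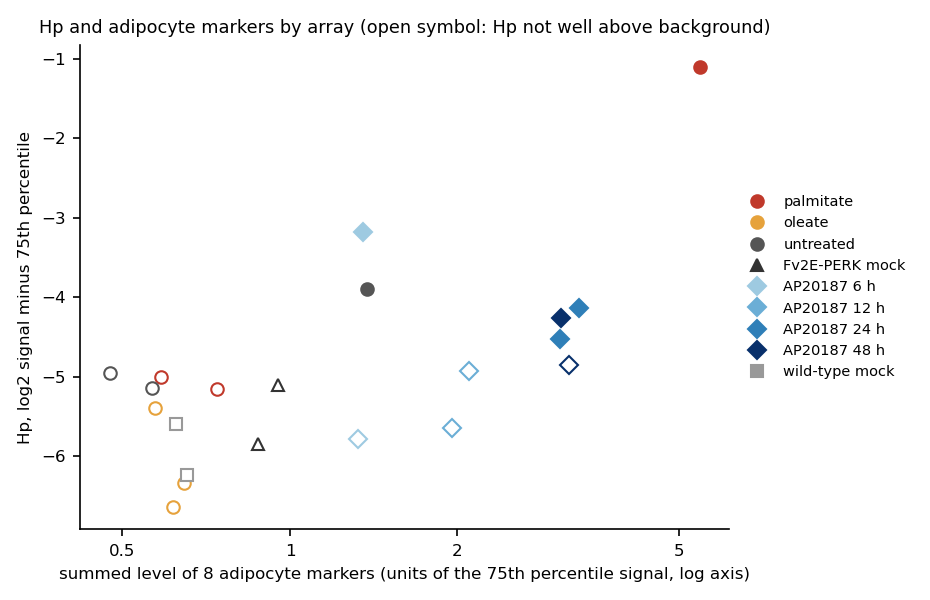
Hp signal (y axis, log2 minus the 75th percentile) against the summed linear level of 8 adipocyte markers (x axis, log scale), 1 point per array, open where Hp was not well above background. Palmitate array 3 stands alone at the upper right, at 5.46 and -1.11, and most other arrays are open symbols below -4.

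Cp, ceruloplasmin, is a copper-carrying ferroxidase of plasma. It was below background on all 9 fatty acid arrays, which read -6.89 to -5.46, so no difference can be read there. In the PERK experiment the Fv2E-PERK mock arrays read -6.15 and -5.75, the 6 h arrays -6.60 and -6.62, the 12 h arrays -5.99 and -6.82, the 24 h arrays -5.67 and -5.88 and the 48 h arrays -4.13 and -3.90. The wild-type mock arrays read -6.36 and -6.45. Only the 48 h arrays were above background, and they overlapped no other group. Cp rose at 48 h by at least 2.15-fold against Fv2E-PERK mock (fitted change 1.93 ± 0.25, adjusted p = 0.00031) and by at least 2.32-fold against wild-type mock on the same slide (2.38, adjusted p = 7.8e-05). Of all tested entries, 26.5% and 26.4% were called higher in these comparisons. Cp entered the fit through the 48 h arrays alone, and with no filter on dim probes its adjusted p against Fv2E-PERK mock was 0.0011. Against 6 h it rose by at least 2.93-fold (2.59 ± 0.25, adjusted p = 8.2e-05). At 6 h the fit gave -0.66 against Fv2E-PERK mock (adjusted p = 0.049), but both groups were below background and other scalings turned the sign. At 24 h the difference of 0.17 did not pass (adjusted p = 0.57), and with spike-in scaling it was 1.11 (adjusted p = 0.0035).

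C3, the central complement component, passed in no comparison of the fatty acid groups when untreated array 2 was left out. The palmitate arrays read -1.39, -1.31 and -1.08, the oleate arrays -1.20, -1.35 and -1.07, and the untreated arrays -1.11 and -1.28, with the spot of untreated array 2 left out as an outlier. The groups overlapped. Palmitate differed from untreated by -0.07 ± 0.12 (adjusted p = 0.75), oleate from untreated by -0.01 ± 0.12 (0.97) and palmitate from oleate by -0.05 ± 0.11 (0.80). In the authors' deposited table, which keeps that spot at 1.56 where the other untreated arrays are at -0.06 and -0.78, C3 passed with palmitate against untreated (-0.98, adjusted p = 0.048).

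Lower C3 signals, relative to the 75th percentile, accompanied AP20187 in Fv2E-PERK cells. The Fv2E-PERK mock arrays read -0.28 and -0.35, the 6 h arrays -1.32 and -1.22, the 12 h arrays -1.37 and -1.33, the 24 h arrays -1.34 and -1.16 and the 48 h arrays -0.65 and -0.55. The wild-type mock arrays read -0.96 and -0.94. C3 fell relative to Fv2E-PERK mock by 0.96 at 6 h (SE 0.09, adjusted p = 4.4e-05), 1.04 at 12 h (2.3e-05), 0.94 at 24 h (3.9e-05) and 0.28 at 48 h (0.021). The 48 h call ended without Fv2E-PERK mock replicate 1 (adjusted p = 0.10) or 48 h replicate 1 (0.12). At 48 h C3 was higher than at 6 h by 0.67 (adjusted p = 0.00032). Fv2E-PERK mock exceeded wild-type mock by 0.63 (adjusted p = 0.0022), and 48 h exceeded wild-type mock on the same slide by 0.35 (adjusted p = 0.0077). The 48 h level thus lay between those of the mocks, lower than Fv2E-PERK mock and higher than wild-type mock. Among all tested entries, 39%, 39.5%, 39.6% and 32.7% were called lower at 6, 12, 24 and 48 h.

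A second C3 probe moved in the same directions as the first where both passed, with other sizes. It fell by 1.64 at 6 h and by 1.15 at 48 h (adjusted p = 1.2e-05), and Fv2E-PERK mock exceeded wild-type mock by 2.32 on it. Its signals were -1.33 and -1.30 at 48 h, against -0.14 and -0.19 in Fv2E-PERK mock and -2.55 and -2.41 in wild-type mock. Scaling to the spike-in RNAs moved the median change of all entries by 0.71, 0.73, 0.94 and 0.64 at 6, 12, 24 and 48 h. The fall of C3 then did not pass on the first probe, with -0.25 at 6 h (adjusted p = 0.35) and 0.35 at 48 h (0.16), and the second probe gave -0.94 at 6 h (0.0022), -0.97 at 12 h (0.0016), -0.37 at 24 h, which did not pass (0.13), and -0.52 at 48 h (0.045).

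C1qa encodes a chain of C1q, the recognition unit of the classical pathway, and is known mainly from macrophages and microglia. On the palmitate arrays it read 1.67, 1.67 and 1.47, on the oleate arrays 2.53, 2.54 and 2.51, and on the untreated arrays 3.26, 3.25 and 3.12. The groups were ordered without overlap. Palmitate was 3.05-fold below untreated (difference -1.61) and 1.89-fold below oleate (-0.92), and oleate was 1.61-fold below untreated (-0.69).

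At every AP20187 time C1qa was near one low level. The Fv2E-PERK mock arrays read 2.13 and 2.17, the 6 h arrays -0.24 and -0.34, the 12 h arrays -0.37 and -0.43, the 24 h arrays -0.23 and -0.27 and the 48 h arrays -0.17 and -0.19. The wild-type mock arrays read 3.48 and 3.22. The differences from Fv2E-PERK mock were -2.44, -2.55, -2.40 and -2.33, or 5.44-, 5.85-, 5.27- and 5.02-fold lower at 6, 12, 24 and 48 h. Scaled to the spike-ins they were -1.74, -1.82, -1.46 and -1.69. Fv2E-PERK mock was 2.30-fold below wild-type mock, on another slide, and 48 h was 11.6-fold below wild-type mock on the same slide. In the order of levels wild-type mock and untreated cells overlapped at the top, then came oleate, Fv2E-PERK mock and palmitate, and the 4 AP20187 times lay lowest, 6 h and 24 h overlapping.

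C1qb and C1qc encode the chains that join C1qa in C1q. C1qb averaged -2.99 with palmitate, -2.94 with oleate and -2.72 in untreated cells. Its palmitate difference of -0.26 did not pass (adjusted p = 0.23). C1qb fell by 0.62 at 6 h (adjusted p = 0.038), 0.71 at 12 h (0.021) and 0.85 at 24 h (0.0097), whereas the -0.15 of 48 h did not pass (0.60). With spike-in scaling those changes were 0.08, 0.01 and 0.09 at 6, 12 and 24 h. Leaving out single arrays also ended the call at each of these times (adjusted p = 0.053 to 0.15). C1qc was above background on no array. The C1qa signal, far brighter than that of C1qb, rests on a single probe, and what that probe binds was not tested. Of 12 macrophage markers, 11 had a probe, and these summed to 1.58 to 2.06 with palmitate, 1.82 to 2.14 with oleate and 1.95 to 2.30 in untreated cells. In the PERK experiment they summed to 2.34 to 2.68 in Fv2E-PERK mock, 0.839 to 1.39 from 6 to 24 h, 1.95 to 2.40 at 48 h, and 3.75 to 4.19 in wild-type mock. Their part in the C1qa result was not tested. The sums rest on Csf1r and Fcer1g, which were above background on all 21 arrays. Csf1r, a macrophage growth factor receptor, read -0.50 to 0.30 with palmitate, -0.09 to 0.31 with oleate and 0.10 to 0.45 in untreated cells, and 0.56 to 0.99 in Fv2E-PERK mock, -1.32 to -0.43 from 6 to 24 h, 0.26 to 0.68 at 48 h and 1.30 to 1.54 in wild-type mock. Aif1, Tyrobp, Ptprc, Laptm5, Cx3cr1 and Mpeg1 were each above background on 1 array, and Lyz2, Adgre1 and Mrc1 on none. The heart muscle genes, lower on palmitate arrays than on untreated arrays, summed to 0.660 to 0.722 in Fv2E-PERK mock, 1.18 to 2.56 with AP20187 and 0.602 to 0.749 in wild-type mock.

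**Figure D3:**
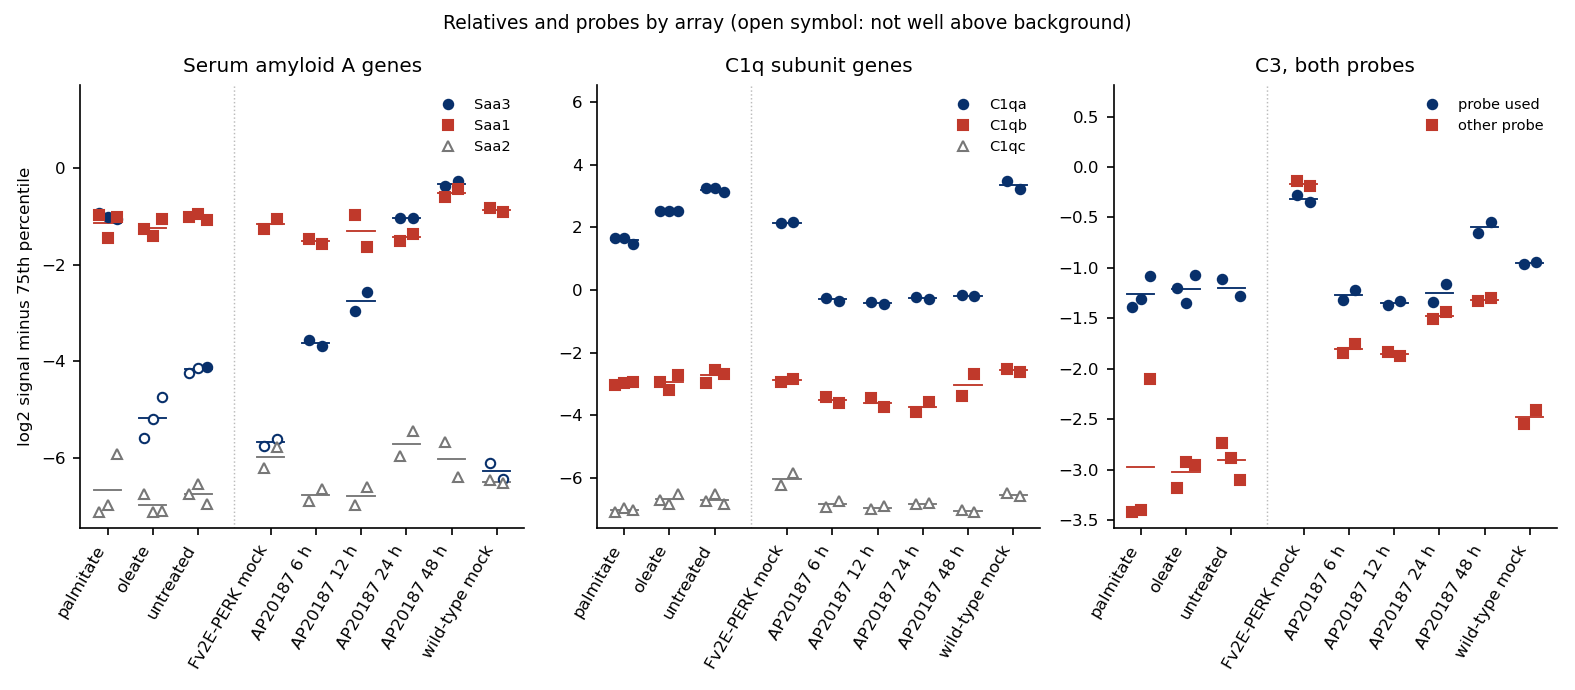
Serum amyloid A genes, C1q subunit genes and both C3 probes on each array (y axis: log2 signal minus the 75th percentile; lines: group means; open symbols: not well above background). Saa3 spans a wide range while Saa1 varies little, C1qa lies over 2 units lower with AP20187 than in Fv2E-PERK mock, and both C3 probes are highest in Fv2E-PERK mock.

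The surrounding pathway was read from lists of acute-phase proteins, complement components, and complement regulators and receptors. Leaving out Saa3, Lcn2 and C1qa, 74 of 78 listed genes had a probe, and 29 were bright enough to be tested with fatty acids and 34 with AP20187. With palmitate against untreated, 6 rose and 4 fell, while 6.5% of all tested entries were called higher and 11.6% lower. By list, 2 acute-phase proteins rose and 1 fell of 9, 2 components rose and 2 fell of 11, and 2 regulators or receptors rose and 1 fell of 9. Their median change was 0.00, against -0.05 over all tested entries. With spike-in scaling 8 rose and 0 fell, and the share of higher among all called entries was 91.2%, against 35.8%. Without palmitate replicates 1 and 2, which carried the skeletal muscle transcripts, 5 of the 29 passed. With oleate against untreated 0 of 29 passed in the limma fit, while 0.243% of all entries were called higher and 0.358% lower. At an unadjusted p under 0.05, 3 of the 29 passed, and 15.4% of all entries. In palmitate against oleate 5 were higher and 2 lower, while 6.52% of all entries were called higher and 5.65% lower. With spike-in scaling these were 5 and 1, and the share of higher among all called entries was 92.6%, against 53.6%.

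All 6 listed genes that rose with palmitate did so by under 1 log2 unit. Crp, C-reactive protein, rose by 0.66 ± 0.06 (adjusted p = 0.00068), and Serping1, the C1 inhibitor, rose by 0.66 ± 0.07 (adjusted p = 0.00075). C4b, the cleavage partner in the classical pathway, rose by 0.71 ± 0.12 (adjusted p = 0.0082), although its near-identical copy C4a may share its signal. Serpina3n, a secreted protease inhibitor, was 0.73 ± 0.07 higher with palmitate than with oleate (adjusted p = 0.00075). With the authors' deposited table these differences of Crp, Serping1, C4b and Serpina3n were 0.43 to 0.48, and none passed (adjusted p = 0.53 to 0.56). Mbl2, a mannose-binding lectin that starts the lectin pathway, fell by 0.60 (adjusted p = 0.021), Cd93, a receptor once linked to C1q, by 0.58 (0.013), and Mt2, a metallothionein, by 0.42 (0.0083). These 3 falls did not pass with spike-in scaling, which gave -0.37, -0.36 and -0.19, and that of Mbl2 did not pass without palmitate replicate 1 (-0.50, adjusted p = 0.066) or 2 (-0.58, 0.058).

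With AP20187 the lists fell more often than they rose at 6, 12 and 24 h. Of 34 tested genes, 3 rose and 19 fell at 6 h, 7 rose and 17 fell at 12 h, and 7 rose and 18 fell at 24 h, while 22.9%, 25.6% and 25.1% of all entries were called higher and 39%, 39.5% and 39.6% lower. At 48 h 10 rose and 12 fell, while 26.5% were higher and 32.7% lower. The rises include Hpx at each time, Cfb at 6, 12 and 24 h and Cp at 48 h. These genes were below background in Fv2E-PERK mock and were tested only through AP20187 arrays, so part of the rises follows from the filter. With no filter on dim probes 2, 6, 7 and 12 of 74 rose and 29, 35, 29 and 26 fell. Of all entries then called, 23.5%, 25%, 24.3% and 27.5% were higher. The 48 h arrays had 12 higher and 5 lower than 6 h (33.6% and 25.7% of all entries), and 9 higher and 10 lower than wild-type mock on the same slide (26.4% and 34.9%). By list, 2 acute-phase proteins rose and 7 fell of 13 at 6 h, and 4 rose and 6 fell at 48 h. Of 12 components 1 rose and 7 fell at 6 h, and 4 rose and 4 fell at 48 h, while of 9 regulators and receptors 0 rose and 5 fell at 6 h, and 2 rose and 2 fell at 48 h. The levels of 10 hepatocyte markers summed to 0.919 to 3.02 over the 21 arrays. Tat and Ambp were above background on all 21, Alb on 9, Serpinc1 on 7, Cyp2e1 on 4 and Apoh on 2, and Apoa1, Apob, F2 and Cps1 on none. List medians were -0.43, -0.46, -0.60 and -0.16 at the 4 times, against -0.25, -0.21, -0.23 and -0.06 over all tested entries. With spike-in scaling the counts turned to 6 rising against 3 falling at 6 h, 11 against 8 at 12 h, 15 against 3 at 24 h and 12 against 6 at 48 h. The share of higher among all called entries went with it, at 89.6% with spike-ins against 37% at 6 h, 87% against 39.3% at 12 h, 93.1% against 38.7% at 24 h and 89.5% against 44.8% at 48 h. Falls of a size near the shift thus turned or ended with this scaling.

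Hpx, hemopexin, the plasma scavenger of heme, was dim in Fv2E-PERK mock and brightest at 48 h. The Fv2E-PERK mock arrays read -4.41 and -5.05, the 6 h arrays -3.06 and -2.87, the 12 h arrays -2.98 and -2.82, the 24 h arrays -0.93 and -0.72 and the 48 h arrays 0.93 and 0.92, and both Fv2E-PERK mock arrays were below background. The rise was at least 3.35-fold at 6 h (adjusted p = 0.045), 3.51-fold at 12 h (0.037), 14.8-fold at 24 h (0.0010) and 49.7-fold at 48 h (0.00016). Hpx entered the fit only through arrays with AP20187. With no filter on dim probes the calls at 6 h and 12 h ended (adjusted p = 0.062 and 0.051), and the adjusted p was 0.0029 at 24 h and 0.00059 at 48 h. Leaving out either replicate of a compared group also ended the calls at 6 h and 12 h (adjusted p = 0.057 to 0.18), while those at 24 h and 48 h remained. Hpx was above background on no fatty acid array. Cfb, factor B of the alternative pathway, rose by at least 3.37-fold at 12 h (adjusted p = 0.0044) and 5.16-fold at 24 h (0.0013), and was below background in Fv2E-PERK mock and again at 48 h. It too was tested only because of the AP20187 arrays, and with no filter its adjusted p was 0.0075 at 12 h and 0.0030 at 24 h.

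C4b rose by 0.83 at 12 h and 1.46 at 24 h, and by 0.36 at 48 h (adjusted p = 0.014). Colec11, a collectin of the lectin pathway, rose by 2.08 ± 0.22 at 48 h (adjusted p = 0.00011). It was also 1.29 higher in Fv2E-PERK mock than in wild-type mock. Crp fell by 1.91, 1.94, 1.89 and 1.77 at the 4 times, and Serpina3n by 2.02 at 6 h and 0.78 at 48 h. Other large falls were those of Ttr at 12 h (-1.76), and of C8g (-1.60), Serpina1a (-1.53) and Mbl2 (-1.48) at 48 h. Serpina3m was below background at 24 h and at least 3.04-fold lower than in Fv2E-PERK mock. Cd14 was lower at 48 h than at 6 h (-1.55, adjusted p = 0.0023). Clu, clusterin, which restrains the terminal complex, fell by 1.47 at 12 h and 0.68 at 48 h. With spike-in scaling Serpina3n at 48 h was -0.14 and Clu at 48 h -0.04, and neither passed. Crp, Serpina3n and Serping1 thus had opposite signs with palmitate and at 6 h of AP20187, where Serping1 fell by 0.55 (adjusted p = 0.020), or was 0.16 with spike-in scaling (0.62). These are separate experiments with separate controls, and their difference was not tested. The falls of Crp, and of Serpina3n at 6 and 12 h, and the rises of Hpx, Cfb and Colec11 kept their direction and passed with spike-in scaling.

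**Figure D4:**
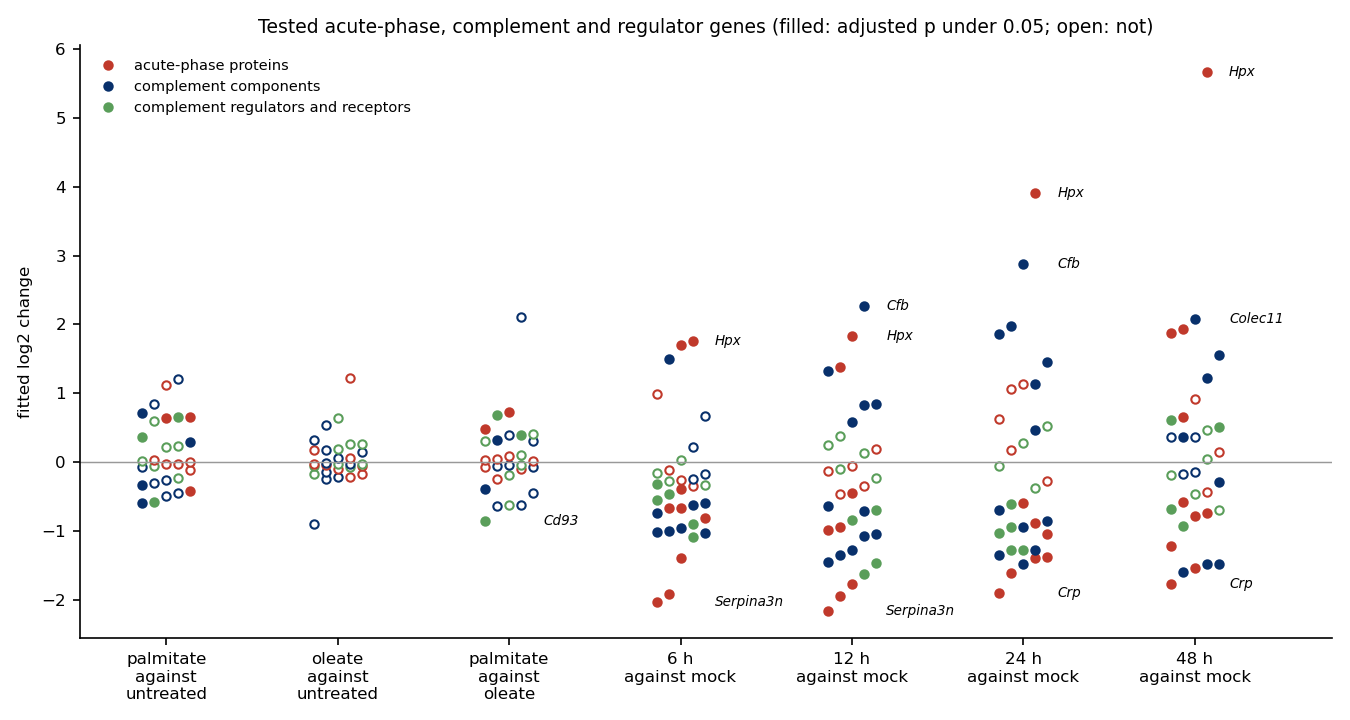
Fitted log2 change of each tested acute-phase, complement or regulator gene other than Saa3, Lcn2 and C1qa (y axis) in 7 comparisons, coloured by list and filled where the adjusted p was under 0.05. Palmitate changes of filled points stay under 1 unit, oleate has no filled point, and Hpx reaches 5.66 at 48 h.

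Iron and heme handling partners of these proteins were read from a further list, of which 10 genes were tested with fatty acids and 12 with AP20187. With palmitate 1 rose and 2 fell, and with oleate 1 rose and 0 fell, while 6.5% and 11.6% of all entries were called higher and lower with palmitate, and 0.243% and 0.358% with oleate. At 6, 12, 24 and 48 h of AP20187 1, 2, 3 and 3 rose and 8, 8, 7 and 5 fell, while 22.9% to 26.5% of all entries were called higher and 32.7% to 39.6% lower. With spike-in scaling 2 rose and 0 fell with palmitate, and none passed with oleate. At these AP20187 times 2, 2, 4 and 4 then rose and 4, 3, 1 and 1 fell. Of all entries, spike-in scaling called 2458 with palmitate, 6 with oleate and 12493 to 16445 with AP20187. Of those called, 91.2% were higher with palmitate and 87% to 93.1% with AP20187. Slc40a1, ferroportin, the iron exporter whose oxidised iron ceruloplasmin helps to load onto transferrin, fell by 0.31 with palmitate (adjusted p = 0.0099; -0.09 and 0.65 with spike-in scaling) and by 1.75 at 12 h (1.7e-06). Tfrc, the transferrin receptor, rose with oleate by 0.45 ± 0.05 (adjusted p = 0.015) and fell by 1.78 at 6 h. Leaving out any oleate replicate ended that oleate call (adjusted p = 0.068 to 0.087). Hmox1, which degrades heme, rose by 2.07 at 48 h against Fv2E-PERK mock, and fell by 1.01 at 6 h, where spike-in scaling gave -0.30 (adjusted p = 0.26). Tlr2, a receptor reported for serum amyloid A, was at least 2.33-fold higher at 6 h and 4.97-fold at 12 h. It was below background in Fv2E-PERK mock and passed the filter on AP20187 arrays, so these rises are not independent of the filter. With no filter on dim probes its adjusted p was 0.00018 at 6 h and 2.5e-05 at 12 h. Fpr2, another reported receptor, was above background on no array.

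Among 18 tested genes of acute-phase signalling, 3 rose and 1 fell with palmitate, and 10, 9, 9 and 6 rose and 3, 3, 5 and 6 fell at 6, 12, 24 and 48 h. Over all entries 6.5% were called higher and 11.6% lower with palmitate, and 22.9% to 26.5% higher and 32.7% to 39.6% lower with AP20187. With spike-in scaling 4 rose and 0 fell with palmitate. With AP20187 14, 13, 14 and 10 then rose and 1, 1, 0 and 3 fell. Spike-in scaling called 2458 of all 24328 entries with palmitate, 91.2% of them higher. It called 12493 to 16445 of 27054 with AP20187, 87% to 93.1% of them higher. Cebpb, the C/EBP factor of the acute-phase response, rose with palmitate by 0.82 ± 0.09 (adjusted p = 0.0014). With the deposited table Cebpb differed by 0.59 and did not pass (adjusted p = 0.41). Its signals were 3.25, 3.32 and 3.11 with palmitate, 2.57, 2.53 and 2.47 with oleate, and 2.21, 2.54 and 2.48 in untreated cells, so palmitate did not overlap either. At 6, 12, 24 and 48 h it rose by 1.92, 2.24, 2.62 and 2.46 (adjusted p = 1.9e-06 at 48 h).

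Nfkbia, the NF-kB inhibitor that NF-kB itself induces, rose by 1.77 ± 0.09 at 6 h and by 0.37 at 48 h, and did not pass with palmitate (-0.06, adjusted p = 0.82). Stat3 rose by 1.16 at 6 h, and both genes fell by over 1 log2 unit at 48 h against 6 h. Stat3 fell with palmitate by 0.37 (adjusted p = 0.0089; -0.15 and 0.37 with spike-in scaling). Cebpd fell by 1.39 at 48 h, and Socs3, a STAT3 target that restrains cytokine signalling, fell by 0.80, or -0.16 with spike-in scaling (adjusted p = 0.54). Il1b, interleukin 1 beta, fell with oleate by 0.51 ± 0.08 (adjusted p = 0.035) and at 48 h by 1.41. Its oleate call ended without any one oleate replicate (adjusted p = 0.11 to 0.15). Il6 and Tnf were above background on no array. Il1r1, a receptor of interleukin 1, fell at 6 h (-1.63, adjusted p = 7.3e-06) and 24 h (-1.48, 8.5e-06). Hnf4a was lower at 48 h than at 6 h (-2.07, adjusted p = 4.8e-06).

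Without AP20187, Fv2E-PERK mock and wild-type mock differed in C3 and C1qa as given above, while Lcn2 differed by 0.12 and Saa3 was below background in both. Of the 34 listed genes 6 rose and 2 fell, while 7.9% of all entries were called higher and 9.48% lower. Il6st, the shared receptor of the interleukin 6 family, was 1.64 higher in Fv2E-PERK mock, and Crp was 0.79 lower. Other receptor genes of the signalling list went the other way, with Il6ra at -1.52 (adjusted p = 0.0013) and Il1r1 at -0.48 (0.014). With spike-in scaling 1 of the 34 rose and 0 fell. Of all 27054 entries 1494 were then called, 65.1% of them higher.

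For each gene the named genes with the most similar pattern were found by Pearson's r over the 21 arrays, after each experiment's mean was removed, among 13107 or 13108 genes. Since arrays of one group share their treatment, these values describe group patterns and carry no test. Saa3 was followed most closely by Akr1b7 (0.990), Car6 (0.988) and Slc4a11 (0.985), and Lcn2 by Lgals3 (0.984), Cdsn (0.975) and Slco1b2 (0.965). C1qa was nearest to Trappc6a (0.983), Acoxl (0.980) and Skap1 (0.979). C3, over 20 arrays, was nearest to Sdk2 (0.962), Sh2d2a (0.956) and Frem2 (0.943), and Cp to Stx1a (0.924), Fev (0.918) and Gpr3 (0.909). Cp was above background only on the 2 arrays of 48 h, so its ranking rests largely on background readings. Hp was nearest to Adig (0.758), an adipocyte gene, Uchl3 (0.731) and Gpd1 (0.729). Between the genes themselves, Saa3 and Lcn2 correlated at 0.96 over the 9 fatty acid arrays and 0.88 over the 12 PERK arrays. Saa3 and C1qa correlated at -0.77 and -0.84. Saa3, Lcn2 and C1qa were selected for their changes, so these values follow in part from that choice.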

How the data were processed

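Total RNA was labelled with Cy3 and hybridised to one-colour Agilent arrays, and Feature Extraction 10.7.1.1 made the deposited intensity values per spot, per the file headers and the submitters' processing notes. The intensity used was the processed signal, which the software had corrected for background, with its flags for signal above background, saturation (0 spots) and outliers (108 to 379 spots per array). The mean spot signal was not used here. The authors' deposited log2 table, whose column medians run between -0.27 and 0.35 (fatty acids) and between -0.32 and 0.33 (PERK), matched the log2 intensity after a constant per array and a baseline per probe. How that baseline was set is unknown, and the table served as an alternative only.

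Each log2 intensity was taken minus its array's 75th percentile (336 to 823 intensity units), control spots and outlier spots were left out, and spots of one probe were averaged. Of 55681 probes, 26582 were named through RefSeq accessions (GRCm38.p6), 29099 stayed unnamed, and a gene is its brightest probe over all arrays. An entry was tested where 1 group or more had all its arrays above background, which left 24328 for fatty acids and 27054 for PERK. Each experiment was fitted separately with limma 3.58.1 in R 4.3.3, with Benjamini-Hochberg adjustment over all entries and a threshold of 0.05. Errors of fitted changes are SE. A fold against a group below background is a bound. For each array of that group it takes the higher of the gene's own reading and the lowest signal of probes above background. The code was tested on simulated data. The number of arrays limits the precision.

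The 6 genes, the lists and the alternatives were chosen with earlier results of these data known. Named genes are these 6, their closest relatives, and per comparison up to 4 that rose and 4 that fell most in the lists. Not every comparison in which such a gene was picked is printed. Slc22a17, Clu, Serping1, Stat3, Socs3, Cebpd, Nfkbia, Il1b, Hmox1 and Fpr2 are also named at other comparisons for their roles, chosen after their values were seen. Alternatives were quantile normalization, normexp background correction on the median signal, spike-in scaling with 10 spike-in probes, other filters and probe rules, the deposited table, a replicate block, and leaving out arrays; 48 h against wild-type mock, the second C3 probe and the values of Saa3, Lcn2 and C1qa under each were added after seeing the data. The replicate number of 1 wild-type mock array was taken from its title, from which its source name differs.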

Additional observations from a re-analysis of the deposited data

How the results depend on the processing

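Counts of listed genes called kept within 1.5 times of the main count under most alternatives. With palmitate 10 became 2 with the deposited table, 6 with no filter on dim probes and 5 without palmitate replicates 1 and 2; against oleate 7 became 2 and 4 (deposited table and those replicates), and with oleate 0 became 1 (deposited table). At 6 h 22 became 9 with spike-in scaling. Without any filter, 24 called of 34 tested genes became 41 of 74 at 12 h. At 48 h 22 of 34 became 38 of 74. The palmitate count without the filter is likewise of 74 tested genes, against 29 in the main fit. Between the mocks 8 became 1 with spike-in scaling. Leaving out 1 array gave 7 to 10 with palmitate, 0 with oleate, 5 to 10 for palmitate against oleate, 12 to 21 at 6 h (12 without 6 h replicate 1, 14 without Fv2E-PERK mock replicate 2), 19 to 24 at 12 h, 23 to 27 at 24 h, 18 to 23 at 48 h, 14 to 21 for 48 h against 6 h, and 5 to 11 between the mocks (5 without Fv2E-PERK mock replicate 2).

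Replicate numbers shared by the groups gave deviations correlated at -0.026 to 0.075 (fatty acids) and 0.062 to 0.135 (PERK). The PERK values were low but all positive, and what samples with the same number share was not tested. The replicate block gave 11, 0, 8, 21, 25, 26, 22, 17 and 6 calls, against 10, 0, 7, 22, 24, 25, 22, 17 and 8 (palmitate, oleate, palmitate against oleate, 6, 12, 24 and 48 h, 48 h against 6 h, and the mocks).

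Of single genes' changes, 2550 recomputed values kept direction and side of the threshold (untested genes: moved under 1 SD), 138 no longer passed, 15 newly passed, 44 untested ones moved further, and 53 changed sign, 36 of these passing in neither setting. With spike-in scaling C3 was 0.16 (palmitate), 0.041 (oleate), 0.12 (palmitate against oleate), 0.0012 (24 h) and 0.35 (48 h); Saa1 0.11 (palmitate), 0.35, 0.59 and 0.67 (6, 12, 24 h, the last 2 passing); C1qb 0.12 (palmitate against oleate), 0.085, 0.014, 0.089 and 0.49 (6 to 48 h); Cp 0.045 and 0.26 (6, 12 h); Lcn2 0.49 (6 h). With quantile normalization C3 was 0.0020 (oleate) and Cp 0.16, 0.31 (6, 12 h) and -0.020 (mocks). With normexp C1qb was 0.021 (palmitate against oleate) and Cp 0.24, 0.23 (6, 12 h, both passing) and -0.19 (mocks). The mean of all probes gave C3 0.22 (palmitate) and 0.22 (oleate), the replicate block C3 0.034 (oleate), the second probe C3 0.049 (palmitate against oleate), the deposited table Saa1 -0.19 (palmitate against oleate), and wild-type mock as the control C3 0.35 (48 h). Without palmitate replicates 1 and 2, C3 was 0.11 (palmitate) and 0.12 (palmitate against oleate) and Saa1 0.016 (palmitate). Leaving out 1 array turned the sign within these ranges: C3 -0.16 to 0.021 (palmitate), -0.10 to 0.074 (oleate) and -0.14 to 0.014 (palmitate against oleate); Saa1 -0.20 to 0.030 (palmitate) and -0.47 to 0.20 (12 h); C1qb -0.17 to 0.068 (palmitate against oleate) and -0.49 to 0.20 (48 h); Lcn2 -0.64 to 0.0025 (oleate), -0.42 to 0.00049 (6 h) and -0.088 to 0.34 (mocks); Hp -0.31 to 2.30 (6 h), -0.17 to 0.55 (12 h) and -1.38 to 1.23 (48 h against 6 h); Cp -0.026 to 0.37 (24 h). Causes were not tested. Slide could not enter the PERK fit, and dim probes limit Hp and Cp.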
